A study of Mus musculus with 4 samples.

Results

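Non-classical monocytes were picked out of single-cell RNA sequencing libraries of phagocytes sorted from mouse hearts. A cell was a member when at least 4 of 8 marker genes (Ace, Treml4, Eno3, Cd300e, Spn, Adgre4, Pglyrp1 and Ceacam1) each had 1 or more unique molecular identifiers (UMIs, counted transcript molecules). The complement genes C1qa, C1qb and C1qc had to stay below 10 UMIs per 10000 together, which sets the cells apart from heart macrophages. The rule found 83 cells among 17312 that passed the filters on cell quality.

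The study had 4 libraries, 1 per group, each from the pooled hearts of 5 mice of both sexes. In 2 groups the mice received carboplatin, a platinum drug that crosslinks DNA, at 45 mg/kg, and in 2 groups PBS, given 2 times per week over 2 weeks. Recovery lasted 4 weeks, and then a minipump delivered, for 7 days, angiotensin II at 1.5 mg/kg per day together with PE at 50 mg/kg per day (AngII/PE), or saline. The groups are carboplatin with AngII/PE, carboplatin with saline, PBS with AngII/PE, and PBS with saline, which is the baseline of both treatments. The sort took CD45+ CD11b+ Ly6G- Ly6C low cells that carried CD64, an Fc receptor that macrophages bear at high levels, so the gate itself can set how many monocytes were recovered. With 1 library per group nothing could be tested between groups, and every interval below covers counting error only. Any 2 libraries had 9 to 17 cell barcodes in common, and none of these barcodes belonged to a member.

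Non-classical monocytes arise from classical Ly6C-high monocytes, a step that needs the nuclear receptor Nr4a1, and they crawl along the inner wall of small blood vessels. The integrin LFA-1, whose alpha chain is encoded by Itgal, holds them to the vessel wall, and the fractalkine receptor Cx3cr1 supports their survival. They take up debris and immune complexes inside the vessel, with Fcgr4 as a typical Fc receptor. Macrophages of the heart wall sit in the tissue, make C1q and clear dying cells.

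Because Nr4a1 is the factor these cells depend on, and Plac8 and S1pr5 are genes that set them furthest apart from the macrophages below, the 250 bases before the start of each are shown. They come from the RefSeq promoter table of build GRCm38.p6, 5′ to 3′ on the gene's strand, at chr15:101266596-101266845 (plus strand) for Nr4a1, chr5:100572206-100572455 (minus strand, the first of 2 listed starts) for Plac8 and chr9:21248444-21248693 (minus strand) for S1pr5. Capitals mark TGCGTCA, a variant of the cyclic AMP response element, in Nr4a1, and CACCC or its complement GGGTG, the core of motifs bound by Krüppel-like factors, in Plac8 and S1pr5.
Nr4a1: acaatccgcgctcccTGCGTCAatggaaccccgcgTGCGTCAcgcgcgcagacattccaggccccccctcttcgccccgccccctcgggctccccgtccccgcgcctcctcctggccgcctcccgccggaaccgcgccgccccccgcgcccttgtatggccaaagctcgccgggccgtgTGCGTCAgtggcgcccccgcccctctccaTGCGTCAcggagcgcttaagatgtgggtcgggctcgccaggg
Plac8: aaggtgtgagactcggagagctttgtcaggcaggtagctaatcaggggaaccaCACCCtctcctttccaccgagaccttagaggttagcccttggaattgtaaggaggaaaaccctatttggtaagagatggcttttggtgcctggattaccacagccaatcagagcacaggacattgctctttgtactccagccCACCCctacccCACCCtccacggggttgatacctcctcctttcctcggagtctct
S1pr5: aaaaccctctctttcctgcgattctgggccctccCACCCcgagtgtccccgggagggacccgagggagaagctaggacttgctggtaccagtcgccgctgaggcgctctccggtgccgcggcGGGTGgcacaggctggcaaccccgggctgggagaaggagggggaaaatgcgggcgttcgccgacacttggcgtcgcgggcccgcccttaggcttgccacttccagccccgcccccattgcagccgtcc

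The Nr4a1 stretch holds 4 copies of TGCGTCA, at 235 to 229, 215 to 209, 71 to 65 and 42 to 36 bases before the start. On either strand TGCGTCA occurs in 572 of 32536 promoter windows of the same length (1.76%), and 4 or more copies occur in 1 window (0.00307%), that of Nr4a1. This motif was chosen after the sequence had been seen. CACCC or GGGTG occurs in 52.1% of the windows, so its presence before Plac8 and S1pr5 is common. The other motifs searched on both strands were GAGGAAG (PU.1, in 10.7% of windows), TGACGTCA (the full cyclic AMP response element, 1.56%), AAAGGTCA (the NR4A element, 1.35%) and TTGCNNAA (C/EBP, 9.57%), and these letters are not in the 3 windows shown. A match describes the letters and says nothing of binding.

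The members were found mostly under saline. Carboplatin with saline held 43 of 3484 kept cells (1.23%, exact 95% interval 0.895 to 1.66) and PBS with saline 32 of 4310 (0.742%, 0.508 to 1.05). Carboplatin with AngII/PE held 4 of 5669 (0.0706%, 0.0192 to 0.181) and PBS with AngII/PE 4 of 3849 (0.104%, 0.0283 to 0.266). The share under AngII/PE was thus 0.0572 times that under saline after carboplatin (95% counting interval 0.0205 to 0.159) and 0.140 times that under saline after PBS (0.0495 to 0.395).

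**Figure D1:**
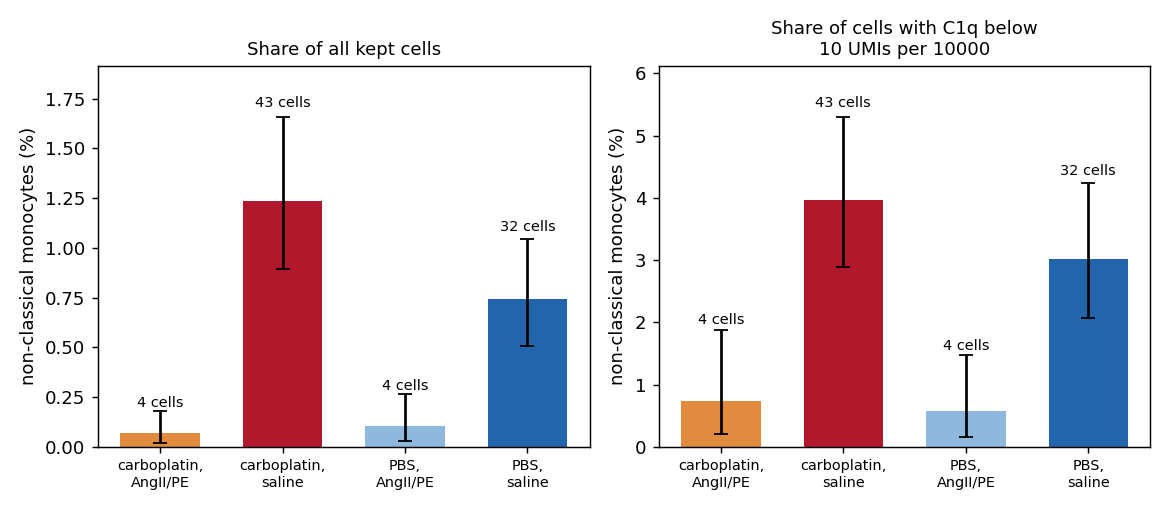
Non-classical monocytes as a percentage of kept cells in each of the 4 libraries, with exact 95% counting intervals. The saline libraries stand at 1.23% after carboplatin and 0.742% after PBS, and the AngII/PE libraries at 0.0706% after carboplatin and 0.104% after PBS.

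The ratios were nearer to 1 when the share was taken among cells low in C1q. C1q-high macrophages numbered 4833 of 5669 kept cells after carboplatin with AngII/PE and 2788 of 3849 after PBS with AngII/PE, against 1891 of 3484 after carboplatin with saline and 2702 of 4310 after PBS with saline. Among cells below 10 C1q UMIs per 10000, members were 0.739% of 541 cells after carboplatin with AngII/PE, against 3.96% of 1085 after carboplatin with saline, a ratio of 0.187 (0.0673 to 0.517). After PBS the shares were 0.578% of 692 cells with AngII/PE and 3.02% of 1059 with saline, a ratio of 0.191 (0.0680 to 0.539). Carboplatin over PBS under AngII/PE gave a ratio of 0.679 among kept cells, with an interval of 0.170 to 2.71 that holds either direction.

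Under saline the share of kept cells was 1.66 times as high after carboplatin as after PBS, with an interval of 1.05 to 2.62. The quality filters had kept 49.4% of 7049 barcodes after carboplatin with saline and 62.4% of 6910 after PBS with saline. The part of this difference in the ratio was not tested. Against C1q-low cells the ratio was 1.31 (0.837 to 2.06), and among members and C1q-high macrophages together, with shares of 2.22% and 1.17%, it was 1.90 (1.21 to 2.99). Cells were called female or male by Xist and Y-linked transcripts. Among female-called cells members were 15 of 1319 (1.14%) after carboplatin and 11 of 1505 (0.731%) after PBS, a ratio of 1.56 (0.717 to 3.38). Among male-called cells they were 20 of 1380 (1.45%) after carboplatin and 12 of 1592 (0.754%) after PBS, a ratio of 1.92 (0.943 to 3.92). The direction was the same in both sexes, and both of these intervals include 1.

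The number of markers per cell is given as a description, since it uses the genes of the rule. After carboplatin with saline, C1q-low cells with 0 to 8 markers numbered 467, 417, 131, 27, 6, 6, 7, 6 and 18, in that order. After PBS with saline the numbers were 438, 437, 129, 23, 3, 4, 5, 9 and 11. The carboplatin library had 6 or 7 cells at each number of markers between 4 and 7 and 18 at 8, and the PBS library 3 to 9 cells and then 11. Under AngII/PE the carboplatin library had 0 cells and the PBS library 1 cell with 7 or 8 markers.

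**Figure D2:**
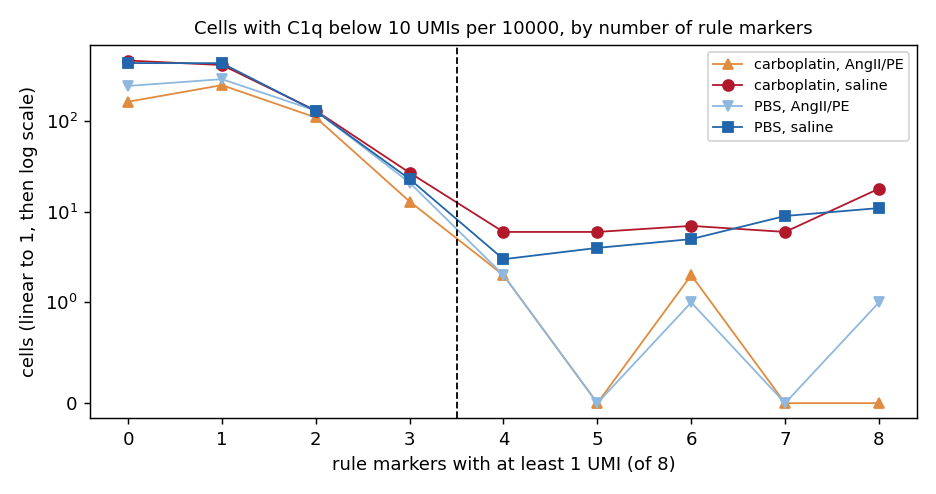
Number of C1q-low cells by how many of the 8 markers had a UMI, for each library. The vertical axis is linear up to 1 and logarithmic above it, and the dashed line marks the threshold of 4 markers. At 8 markers the saline libraries have 18 cells after carboplatin and 11 after PBS.

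Cells on either side of the threshold differed. Levels are given in CPM, the UMIs of a gene as a share of all UMIs summed over the same cells and scaled to 1000000. Over both saline libraries, the 50 C1q-low cells with 3 markers had 78.1 CPM of Itgal and 495 CPM of Cd209a, a gene of type 2 dendritic cells. The 9 members with 4 markers had 518 CPM of Itgal and no UMI of Cd209a, yet 654 CPM of Ccr2, the chemokine receptor of classical monocytes, and 5526 CPM of H2-Aa, an MHC class II chain. The 44 members with 7 or 8 markers had 821 CPM of Itgal, 83.1 CPM of Ccr2 and 1121 CPM of H2-Aa. Of the 9 members with 4 markers, 2 after carboplatin held 339 and 75 UMIs of H2-Aa and 31 and 15 of Ccr2, and the other 7 held 0 to 13 and 0 to 6. After PBS the 3 members with 4 markers had 632 CPM of H2-Aa, against 1111 CPM in the 20 with 7 or 8, so the pooled order of H2-Aa was not seen in that library. On the C1q side, the 10 members between 5 and 10 C1q UMIs per 10000 had 975 CPM of Nr4a1, only 2 cells with 4 or more markers lay between 10 and 20, and the 28 at 20 or more had 101 CPM of Nr4a1 and a median of 23984 UMIs per cell.

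The 8 members under AngII/PE were a mixed lot and are given as single cells only. In the carboplatin library they had 4, 6, 4 and 6 markers, with 0, 3, 0 and 5 UMIs of Itgal and 20, 6, 3 and 4 UMIs of Nr4a1. In the PBS library they had 4, 4, 8 and 6 markers, with 4, 0, 8 and 5 UMIs of Itgal and 0, 6, 2 and 1 UMIs of Nr4a1. A cell of the PBS library with 27696 UMIs held 34 UMIs of Pecam1, an endothelial gene, and the summed endothelial markers of that library's members reached 12838 CPM and their neutrophil markers 11829 CPM. All 4 cells of the carboplatin library were female-called and all 4 of the PBS library male-called. No expression comparison was made with these cells.

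Depth in the saline libraries allowed comparison of abundant transcripts. The 4 libraries held 62943457 to 95752612 UMIs in 5997 to 8012 barcodes. Members after carboplatin summed to 455160 UMIs, with a median of 9719 UMIs and 3142 genes per cell, and after PBS to 331452 UMIs, with 8528 UMIs and 3056 genes. C1q-high macrophages, defined by at least 30 C1q UMIs per 10000 and fewer than 4 markers, numbered 1891 after carboplatin and 2702 after PBS, with deeper medians of 14792 and 12833 UMIs. Shares of cells with a UMI are therefore also given after each cell was thinned to 2000 UMIs.

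The genes of the rule are given as levels only. Adgre4, an adhesion receptor, was the most abundant, at 1114 CPM in members after carboplatin and 1216 CPM after PBS, against 60.9 and 43.1 CPM in the C1q-high macrophages of the same libraries. Ace, the enzyme that makes angiotensin II, had 457 CPM after carboplatin and 407 CPM after PBS, against 0.690 and 0.282 CPM in macrophages. Cd300e, an activating receptor, had 275 and 281 CPM in members against 0.254 and 0.226 CPM in macrophages. Treml4, Spn (CD43), Pglyrp1, Eno3 and Ceacam1 lay between 244 and 345 CPM in members of either library. Ceacam1 was also present in endothelial cells, at 132 and 134 CPM.

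Other cell types left traces in some members. At least 3 markers of 1 of 7 cell types (endothelial, B, T and natural killer, neutrophil, fibroblast, mural and cardiomyocyte) occurred in 9 of 43 members after carboplatin and 7 of 32 after PBS. Mononuclear phagocytes were not among these 7 types. At least 3 of 10 macrophage markers occurred in 14 members after carboplatin and 12 after PBS, at least 3 of 8 classical monocyte markers in 6 and 8, and at least 3 of 8 type 2 dendritic cell markers in 5 and 4. The 8 endothelial markers summed to 655 CPM in members after carboplatin and 854 CPM after PBS, against 154 and 144 CPM in macrophages, and 3 or more of them occurred in 6 cells after carboplatin and 3 after PBS. The 8 B cell markers summed to 910 CPM after carboplatin and 1493 CPM after PBS, against 309 and 310 CPM in macrophages, with Cd79a in 44 and 51 UMIs that lay in 3 cells of each library. T and natural killer cell markers summed to 8.79 CPM after carboplatin and 0 after PBS. Type 2 dendritic cell markers summed to 290 CPM in members after carboplatin and 226 CPM after PBS, against 373 and 306 CPM in macrophages, with UMIs of 6 and 7 of the 8 markers and none of Cd209a. Macrophage markers had UMIs of 9 of 10 in members of either library, with Timd4 at 0. The part of mixed barcodes in the results below was not tested, and values without them leave out the members with markers of those 7 types only.

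The transcription factor Nr4a1 (chr15:101254269-101274795, plus strand) had 954 CPM in members after carboplatin and 609 CPM after PBS, against 76.6 and 66.3 CPM in C1q-high macrophages. On the log2 scale, with 5 CPM added to every level as in all such ratios here, members stood 3.55 above macrophages after carboplatin and 3.11 after PBS. At 2000 UMIs per cell 74.4% of members after carboplatin (58.8 to 86.5) and 68.8% after PBS (50.0 to 83.9) had an Nr4a1 UMI. The same share was 12% and 10.2% in macrophages, and 10.0% and 3.91% in endothelial cells. Nr4a1 is also induced in many cells by stimulation and handling, so neither class is a background for it.

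The rule chose the members in these same cells, so the ratios against macrophages describe them and support nothing. Of 6577 genes compared, members of both saline libraries had 528 (8.03%) higher by 2-fold or more and 540 (8.21%) lower by as much. With a 1.5-fold limit, used for gene lists below, 986 genes (15%) were higher and 904 (13.7%) lower. The median over all genes compared was 0.07 after carboplatin and 0.08 after PBS.

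**Figure D3:**
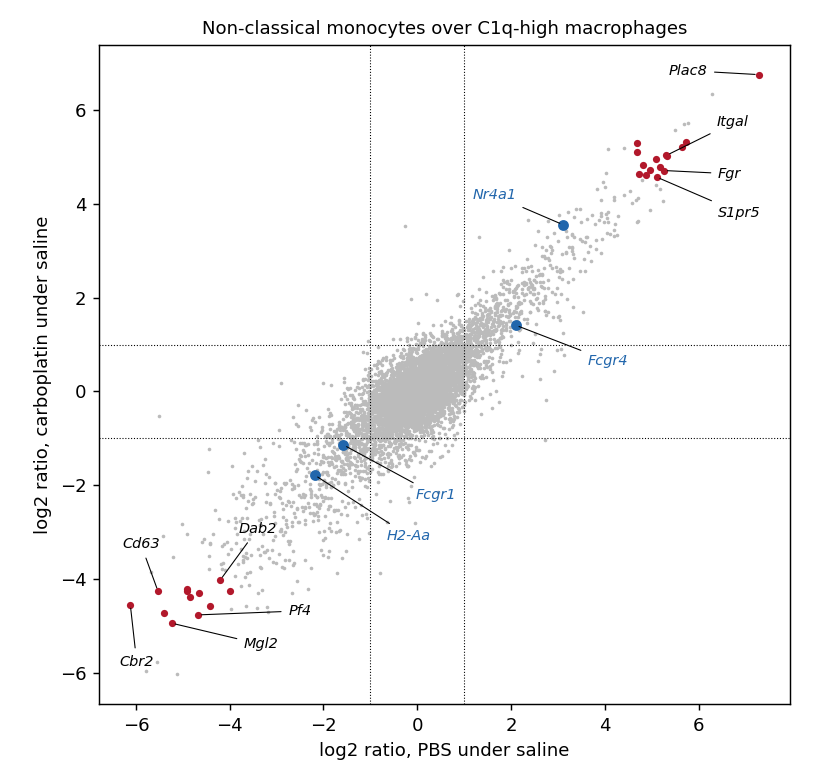
Log2 ratio of non-classical monocytes over C1q-high macrophages for each gene compared, after carboplatin (vertical) and after PBS (horizontal), both under saline, with 5 CPM added. Red points are the genes named by rule, blue points are genes named for their role, and dotted lines mark 2-fold. Plac8 stands highest, at 6.76 and 7.28, and Mgl2 lies low, at -4.94 and -5.24.

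Among the genes named as highest, Plac8 (chr5:100553725-100572245, minus strand), a small cysteine-rich protein of myeloid cells, had 1509 CPM in members after carboplatin and 1291 CPM after PBS, against 9.01 and 3.33 CPM in macrophages. B cells of these libraries also carried it, at 502 and 582 CPM. Itgal (chr7:127296260-127335138, plus strand) had 778 CPM after carboplatin and 715 CPM after PBS, against 18.9 and 13.1 CPM in macrophages. Thinned cells with an Itgal UMI were 81.4% and 81.2% of members, 3.08% and 2.34% of macrophages and 0.698% and 0.230% of endothelial cells.

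Fgr, a Src-family kinase of myeloid cells, had 1169 CPM in members after carboplatin and 1153 CPM after PBS, against 39.8 and 25.2 CPM in macrophages. S1pr5, a sphingosine-1-phosphate receptor that guides the exit of natural killer cells and monocytes from bone marrow, had 53 UMIs among 43 members and 56 among 32, against 3 and 2 UMIs in all macrophages of those libraries. Ear2, a ribonuclease, stood 5.31 and 5.73 above macrophages on the log2 scale, but near-identical Ear genes may share its reads. The glycosyltransferase Gcnt2 stood 5.20 and 5.65 above and the receptor Cd244a 5.03 and 5.33. Runx2, a transcription factor best known from bone, stood 4.96 above after carboplatin and 5.08 after PBS. Dnah12, a dynein chain known from cilia, stood 4.83 and 4.81 above with 70 and 55 UMIs. The others named by rule were Ccdc88c, Ldlrad3, Zfyve9, Arhgef37, Gpr141 and Napsa, each at 4.61 or more in both libraries.

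Genes known from tissue macrophages were prominent among those named as lowest. Pf4, a chemokine best known from platelets, had 43.9 CPM in members after carboplatin and 78.4 CPM after PBS, against 1327 and 2129 CPM in macrophages. The lectin Mgl2 had 7 and 4 UMIs in members, and log2 ratios of -4.94 and -5.24 over macrophages. Dab2, an endocytic adaptor, had 61.5 and 69.4 CPM in members, against 1079 and 1367 CPM in macrophages, and the tetraspanin Cd81 43.9 and 57.3 CPM, against 935 and 994 CPM. Ltc4s, the leukotriene C4 synthase, had no UMI in any of the 75 members under saline, and macrophages stood at least 13.7-fold above a floor of 3 counts per library after carboplatin and at least 16.1-fold after PBS. Cbr2, Retnla, Ccl7, Ccl12, Ms4a7, Pmp22 and Cd63 had 0 to 6 UMIs in members of either library and at least 3773 UMIs in macrophages.

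Of 12 transcription factors linked to these monocytes, 6 were at least 1.5-fold higher and 1 lower in both libraries, with medians of 0.71 after carboplatin and 0.66 after PBS. Besides Nr4a1 the largest ratios were those of Tcf7l2, a Wnt pathway factor (2.65 and 2.36), Cebpb, which these monocytes need to survive (2.64 and 2.24), and Pou2f2 (2.29 and 2.28). Klf2, a factor known from endothelium and quiescent lymphocytes, pointed in different directions, at 782 and 778 CPM in members, against 582 and 858 CPM in macrophages.

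Of 18 migration and adhesion genes compared, 11 were higher and 3 lower, with medians of 1.36 and 0.96. The integrin alpha4 chain Itga4 had 1164 CPM in members after carboplatin and 1017 CPM after PBS, against 201 and 162 CPM in macrophages. Itgb7 (2.63 and 2.87) and the chemokine receptor Cxcr4 (2.24 and 2.12) were also higher. Pecam1 was 2.64 and 3.24 higher, in cells some of which carried other endothelial markers. Ccr1, a receptor for inflammatory chemokines, had no UMI in members, and macrophages stood at least 10.3-fold and 6.28-fold above the floor. Cx3cr1, often used to mark these monocytes, did not separate them from heart macrophages, with 321 and 196 CPM in members, against 243 and 183 CPM in macrophages. Ccr2 had 169 and 145 CPM in members, against 343 and 160 CPM.

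Survival genes were higher in 6 of 11 and lower in 1. The apoptosis inhibitor Bcl2 had 718 CPM in members after carboplatin and 498 CPM after PBS, against 133 and 137 CPM in macrophages. Its relative Bcl2a1d was 2.07 and 1.77 higher and the TNF receptor Tnfrsf1b 2.11 and 2.39, while Bcl2l1 was lower, at -2.43 and -1.87. Csf1r, the receptor for the growth factor CSF1, was similar, at 635 and 694 CPM in members, against 824 and 900 CPM in macrophages.

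The Fc gamma receptors split. Fcgr4 had 341 CPM in members after carboplatin and 311 CPM after PBS, against 125 and 68.8 CPM in macrophages. Fcgr1, which encodes the CD64 used in the sort, had 65.9 and 54.3 CPM in members, against 151 and 172 CPM in macrophages. Thinned cells with an Fcgr1 UMI were 16.3% and 18.8% of members, 23.7% and 27.4% of macrophages, and 0.698% and 0.920% of endothelial cells. Fcgr3 was lower, at -1.98 and -2.02, as was the inhibitory Fcgr2b, at -1.13 and -1.27.

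Antigen presentation split by class. Of 10 MHC class II pathway genes 7 were lower and 2 higher, with medians of -1.45 and -1.95. H2-Aa had 2610 CPM in members after carboplatin and 1554 CPM after PBS, against 9004 and 7102 CPM in macrophages. Of 14 MHC class I pathway genes none passed 1.5-fold in both libraries, with medians of 0.05 and 0.50, and B2m, the shared light chain, had 2509 and 2221 CPM in members, against 1935 and 1359 CPM. The related H2-Q genes may share reads.

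Uptake genes changed in kind. Of 22 phagocytosis and efferocytosis genes 8 were higher and 10 lower, while the medians were 0.26 and 0.51. Higher were Cd36, a scavenger receptor (921 and 618 CPM in members, against 343 and 365 CPM), Havcr2, which binds phosphatidylserine (2.33 and 2.54), Cd300a (2.06 and 2.27) and Scarb1 (2.20 and 2.11). Cd36 was also abundant in endothelial cells, at 2839 and 2837 CPM. Lower were the bridging protein Gas6 (-3.79 and -4.17), the receptor Mertk (-2.70 and -3.75) and Stab1 (-3.36 and -3.96). Of 15 genes of the resident macrophage programme 14 were lower and none higher, with medians of -3.54 and -4.24, or -3.54 and -4.18 with genes at 0 UMIs set to the floor. F13a1 had 202 CPM in members after carboplatin and 109 CPM after PBS, against 1360 and 2137 CPM in macrophages.

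Inflammatory cytokine and chemokine genes were mostly low in members, with 12 of 17 lower and 1 higher and medians of -1.51 and -2.39, the second becoming -1.92 with genes at 0 set to the floor. Cxcl16 had 24.2 and 9.05 CPM in members, against 275 and 241 CPM in macrophages. Il1b, which encodes interleukin-1 beta, did not follow, at 406 and 658 CPM in members, against 317 and 333 CPM. The lipopolysaccharide co-receptor Cd14 had 35.2 and 27.2 CPM in members, against 549 and 690 CPM, and 2 of 11 Toll-like and nucleic acid receptor genes were higher and 4 lower. Of 10 complement genes 4 were higher, among them C3 (2.27 and 2.14), and 5 lower, among them C3ar1 (-3.50 and -4.45).

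Motility genes leaned up. Of 28 actin cytoskeleton genes 13 were higher and none lower, with medians of 0.48 and 0.54. The short-tailed myosins Myo1g (2.60 and 3.05) and Myo1f (1.55 and 1.56), the actin-binding peptide gene Tmsb10 (1.72 and 2.72) and the formin Fmnl1 (1.56 and 1.49) stood highest. Of 16 lysosome and cathepsin genes 10 were lower and none higher, among them Ctsc (-1.30 and -2.41). Of 14 S100 and annexin genes 1 was higher and 6 lower.

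In most of the remaining lists more genes were lower than higher, where among all genes compared 15% were higher and 13.7% lower. Of 27 immediate-early and heat shock genes, which cell digestion is known to induce, 3 were higher and 10 lower, with medians of -0.27 and -0.76. Among the lower ones was Egr1, at 218 and 103 CPM in members, against 474 and 568 CPM in macrophages. Of 23 interferon response genes 2 were higher, with Ly6e at 1.33 and 1.68, and 7 lower, with medians of -0.70 and -0.01. Cxcl10 had no UMI in members after PBS, against 55.0 CPM in macrophages. Of 18 p53 target and DNA damage genes 1 was higher, the apoptosis gene Pmaip1 at 2.02 and 2.07, and 3 lower, with Cdkn1a at -1.96 and -1.54. Of 3 angiotensin system genes compared besides Ace, the peptidase gene Lnpep was higher (0.83 and 1.00) and Ctsd lower (-1.14 and -1.51). Of 4 proliferation genes none was higher and 2 were lower.

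**Figure D4:**
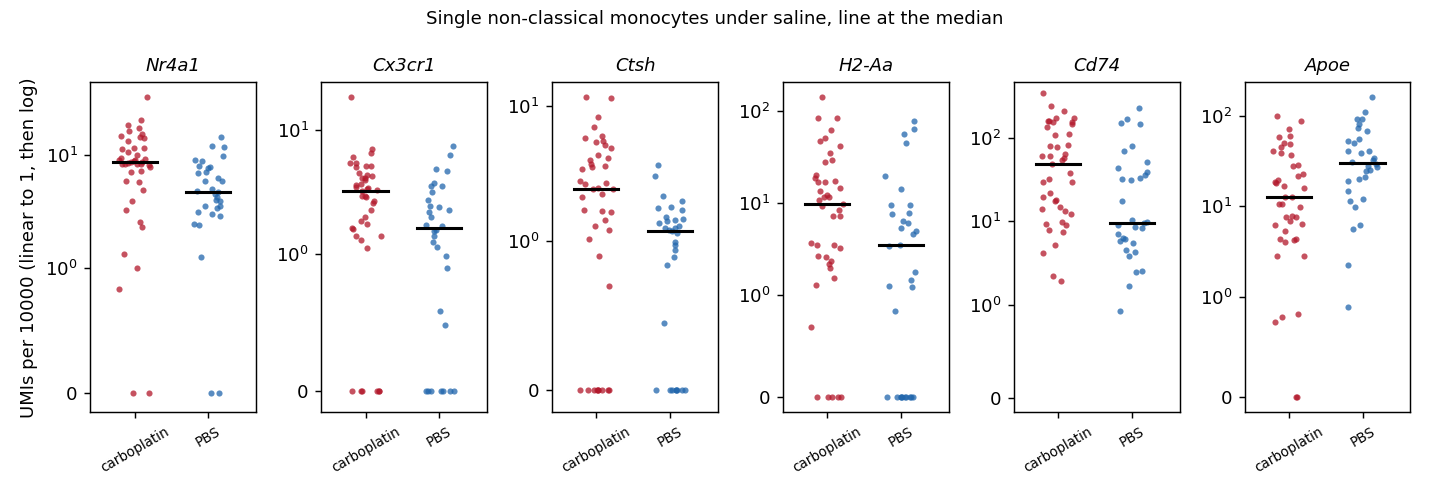
UMIs per 10000 in each non-classical monocyte under saline, after carboplatin (left of each pair, 43 cells) and after PBS (right, 32 cells), with a line at the median. Nr4a1 has medians of 8.71 and 4.73, and the 5 richest cells hold 61.9% of H2-Aa UMIs after carboplatin and 82.1% after PBS.

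The comparison of carboplatin and PBS under saline asks how these monocytes differed after the drug and its recovery period. It rests on 43 cells and 32 cells and no replicate. Of 3669 genes at 50 CPM or more, 52 (1.42%) were higher after carboplatin by 2-fold or more and 55 (1.50%) lower by as much. With the 1.5-fold limit 241 (6.57%) were higher and 314 (8.56%) lower, and the median of all genes was -0.03. Without the 16 members that carried at least 3 markers of 1 of the 7 other cell types, 102 genes passed 2-fold upward and 85 downward. That setting left 34 and 25 cells, and the part of cell number in these counts was not tested.

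Several genes typical of the cells had similar levels in both libraries, whereas Nr4a1 and Cx3cr1, given below, passed 1.5-fold. Itgal had 778 CPM after carboplatin and 715 CPM after PBS, and single members had medians of 8.23 and 6.61 UMIs per 10000. Fcgr4, Csf1r, Plac8, Fgr, Tcf7l2, Cebpb and Pou2f2 each differed by less than 1.5-fold. None of 28 actin genes, 14 phagocytosis genes, 14 MHC class I genes or 5 Fc gamma receptor genes passed 1.5-fold in either direction.

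Nr4a1 and Cx3cr1 leaned up after carboplatin. Nr4a1 had 434 UMIs among members after carboplatin and 202 after PBS, a log2 ratio of 0.64, with 0.61 in female-called cells, 0.76 in male-called cells and 0.19 in C1q-high macrophages. Single members had a median of 8.71 Nr4a1 UMIs per 10000 after carboplatin (0 to 32.5) and 4.73 after PBS (0 to 14.3), and the ranges overlapped. Cx3cr1 had 146 and 65 UMIs, a log2 ratio of 0.70, with 0.50 in female-called cells, 1.05 in male-called cells and 0.41 in macrophages. By number of markers, Cx3cr1 was higher after carboplatin mainly in members with 7 or 8, at 372 and 168 CPM. It had 276 and 269 CPM in members with 5 or 6 markers and 204 and 230 CPM in those with 4. Of the 11 transcription factors compared Nr4a1 was the 1 that passed 1.5-fold, as Cx3cr1 was of 16 migration genes and Bcl2a1d (0.59) of 10 survival genes. Among all genes compared 6.57% were higher by as much. The medians of these lists were 0.007, 0.13 and -0.016, in that order, so the lists as a whole did not lean up with these genes.

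MHC class II genes were higher after carboplatin in the sums of all members, 7 of 8 compared by at least 1.5-fold and none lower, with a median of 0.83, against 0.36 in C1q-high macrophages. H2-Eb1 (chr17:34305867-34316674, plus strand), a class II beta chain, had 1012 UMIs after carboplatin and 369 after PBS, a ratio of UMI shares of 2.0 (1.77 to 2.26). Cd74, the invariant chain, had 4084 and 1741 UMIs, a ratio of 1.71 (1.61 to 1.81). These intervals count molecules and not cells. The genes named by rule were chosen by the bound nearest 1 of the same intervals. The distance of their intervals from 1, here and below, thus follows from that choice and is no support. The 5 richest cells held 58.5% of H2-Eb1 UMIs after carboplatin and 83.5% after PBS, and of Cd74 UMIs 47.6% and 73.1%.

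At the level of single cells, 20 of 43 members after carboplatin and 6 of 32 after PBS had at least 100 UMIs per 10000 of the class II pathway genes together, and they held 88.7% and 76.5% of those UMIs. With a limit of 50 UMIs per 10000 the libraries were nearer each other, at 24 of 43 and 12 of 32 cells, which held 94.3% and 87.3%. Of the 20 cells after carboplatin 6 were female-called, 11 male-called and 3 uncalled, and of the 6 after PBS 4 were female-called, 1 male-called and 1 uncalled. H2-Eb1 was higher after carboplatin in male-called cells, at 2.95, and lower in female-called cells, at -0.94, and Cd74 went the same way, at 2.07 and -0.64. The median of the list was 0.61 without members that carried markers of those 7 types, 2.65 in male-called cells, -0.60 in female-called cells, -0.32 with a rule of at least 3 markers and -0.27 with 7 or more markers and no such markers. In male-called cells the median of H2-Eb1 was 12.9 UMIs per 10000 after carboplatin and 2.49 after PBS, and in female-called cells 2.92 and 3.13. Other female-called medians did not follow the female-called sums. Cd74 had medians of 22.1 after carboplatin and 8.46 after PBS in female-called cells, and the class II genes together 41.9 and 27.6. Those of H2-Aa were both 3.51.

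Cathepsins and other genes were named as highest after carboplatin. Ctsh (chr9:90054152-90076089, plus strand), a lysosomal protease, had 140 UMIs after carboplatin and 39 after PBS, a ratio of 2.61 (1.82 to 3.83), with log2 ratios of 1.51 in female-called cells, 1.23 in male-called cells and 0.18 in macrophages. Thinned cells with a Ctsh UMI were 48.8% of members after carboplatin and 15.6% after PBS, and single members had medians of 2.42 and 1.18 per 10000. Ctsc, the protease that activates granule enzymes, had 274 and 99 UMIs, a ratio of 2.02 (1.60 to 2.56), with log2 ratios of 0.65 in female-called cells and 0.99 in male-called cells. With Ctsl at 0.59 these were the 3 of 16 lysosome genes above 1.5-fold. A rule of at least 3 markers, which adds 27 cells after carboplatin and 23 after PBS, put Ctsh at -0.05 and Ctsc at -0.16.

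Tnfaip2, a gene that TNF induces, had 52 UMIs after carboplatin and 8 after PBS, a ratio of 4.73 (2.23 to 11.5), and was found in 41.9% of members after carboplatin and 18.8% after PBS. Gnptab, which tags lysosomal enzymes for transport, had 41 and 9 UMIs, and Impact, a regulator of translation under stress, had 57 and 15, both on the same side in either sex. Ifrd1 had 180 and 42 UMIs, with 64.4% of those after carboplatin in 5 cells, and Rasgef1b 110 and 26. Other named genes rested on 1 sex or 1 cell. Bag3, a co-chaperone, had 132 and 42 UMIs, and its log2 ratio of 1.16 became 0.38 without the richest cell of the carboplatin library. Atrnl1 stood at 4.08 in male-called cells and -0.05 in female-called cells, and Immp2l at 2.72 in female-called cells and -0.35 in male-called cells.

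Genes named as lowest after carboplatin had low counts, apart from Apoe and Hpgd. Apoe, the lipid carrier, had 895 UMIs after carboplatin and 1252 after PBS, a log2 ratio of -0.94 that C1q-high macrophages shared, at -1.08. Single members had medians of 12.6 Apoe UMIs per 10000 after carboplatin and 30.3 after PBS. Hpgd, the enzyme that inactivates prostaglandins, had 81 and 158 UMIs, a log2 ratio of -1.40, against -1.02 in macrophages. In summed UMIs both genes were lower in male-called cells (-2.30 for Apoe and -3.66 for Hpgd) and higher in female-called ones (0.88 and 0.95). Of the 61 Hpgd UMIs in female-called members after carboplatin, 29 lay in 1 cell. The Hpgd median of single female-called members was 0 per 10000 after carboplatin and 0.890 after PBS, and of male-called members 0 and 1.04.

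Capn2, a calpain protease, had 18 UMIs after carboplatin and 52 after PBS, in 25.6% and 65.6% of members. Ddx10, an RNA helicase, had 13 and 35 UMIs and the mitochondrial ribosome gene Mrpl43 9 and 27, and both were lower in either sex. Plk2, a kinase and p53 target, had 11 and 32 UMIs, with log2 ratios of -2.90 in female-called cells and -1.96 in male-called cells. Ifi204, an interferon-inducible DNA sensor whose near-identical relatives may share its reads, had 44 and 74 UMIs, with log2 ratios of -1.59 in female-called cells and -1.25 in male-called cells. Nectin1, an adhesion molecule, had 14 and 32 UMIs. Dlc1 (8 and 29 UMIs), Psd3 (14 and 45) and Plxdc2 (11 and 29) each came from a few cells. Without the richest cell of the PBS library Psd3 stood at -0.49. Airn, a noncoding RNA annotated as antisense to its neighbour, had 6 and 33 UMIs in 6.98% and 12.5% of members, and the sources used here do not say whether counting kept strand.

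**Figure D5:**
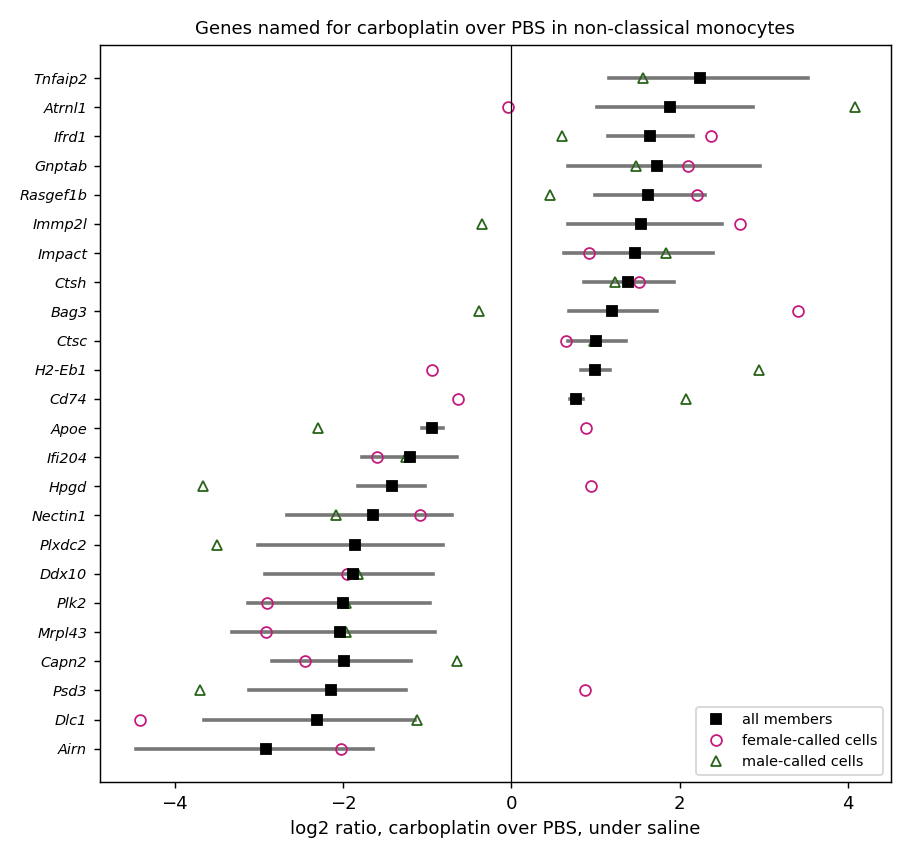
Log2 ratio of carboplatin over PBS under saline for the 24 genes named by rule. Squares with bars are ratios of UMI shares over all members with exact 95% counting intervals, and open symbols are female-called and male-called cells with 5 CPM added, shown where that sex had at least 10 UMIs. Ctsh, Ctsc and Gnptab lie right of 0 in both sexes, and H2-Eb1, Cd74, Apoe and Hpgd lie on opposite sides of 0 in the 2 sexes.

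Damage and stress lists had 9 to 24 genes compared, and their counts past 1.5-fold stand against 6.57% higher and 8.56% lower among all genes. Of 9 p53 target genes 1 was higher after carboplatin, Sesn1 with 39 and 14 UMIs, and 1 lower, Plk2, with a median of 0.19. Cdkn1a, the p53 target that stops the cell cycle, had 25 UMIs after carboplatin and 28 after PBS. Of 24 immediate-early and heat shock genes 4 were higher, with Egr1 at 99 and 34 UMIs and Nr4a2 at 43 and 12, and 1 lower, Dnajb1 at 31 and 41. The median of this list was 0.22 in members and -0.32 in C1q-high macrophages. Of 10 interferon response genes 1 was higher (Ifi27l2a, 0.69) and 3 lower (Ifi204, Stat2 and Trim30a), and of 9 inflammatory genes 3 were higher, led by Ccl4 with 43 and 14 UMIs, and 2 lower, Cxcl2 and Il1b. Il1b had 185 UMIs after carboplatin and 218 after PBS, with log2 ratios of 0.41 in female-called cells and -1.48 in male-called cells.

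Of 5 resident macrophage genes compared, 3 were higher after carboplatin, among them Mrc1 with 48 and 13 UMIs and F13a1 with 92 and 36, and Pf4 was lower. The log2 ratio of Mrc1 was 3.01 in female-called cells and 0.29 in male-called cells. That of F13a1 was 4.49 in female-called cells and -0.97 in male-called cells. F13a1 had a log2 ratio of -0.24 without the richest cell of the carboplatin library. The macrophage marker list as a whole summed to 2373 CPM in members after carboplatin and 4100 CPM after PBS, with Apoe its largest member. Of 11 S100 and annexin genes 2 were lower, S100a10 with 16 and 30 UMIs and Anxa2 with 103 and 137. None of the 3 angiotensin system, 4 Toll-like receptor or 3 proliferation genes compared passed 1.5-fold.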

How the data were processed

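The authors deposited raw UMI counts for each gene in each cell barcode. Cell Ranger 7.1.0 is named in the file headers. The labels' protocols give version 3, alignment to mm10 and Seurat 3.2.3, and the submitters' processing notes Seurat 4. The protocols name kit version 3.1 and, for library steps, version 1. The treatment of intronic reads and of strand was not given in the sources used here. Barcodes with a mitochondrial share below 10%, fewer than 30000 UMIs and 501 to 6999 genes were kept, 17312 of 27968.

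UMIs were summed per library and class and given as CPM of that sum. Log2 ratios have 5 CPM added. A mean of at least 20 CPM was asked for against macrophages and 50 CPM for carboplatin over PBS. Count ratios carry exact conditional binomial 95% intervals, shares Clopper-Pearson intervals and ratios of shares Katz intervals. No test was possible with 1 library per group. No doublet caller was run, and members with at least 3 markers of 1 of 7 other cell types were left out as an alternative. Endothelial and other comparison cells needed at least 4 markers of their list. Cells were called female or male by Xist and Y-linked genes.

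Genes named against macrophages are the 15 highest and 12 lowest at 50 CPM or more, ranked by whichever saline library's ratio was nearer 1. For carboplatin they are the 12 highest and 12 lowest by the interval bound nearest 1, in at least 10% of cells. Not eligible were genes of the rule, Xist, Tsix, the Y-linked genes of the sex call and unnamed genes. Genes of the mitochondrial genome and cytosolic ribosomal protein genes were also left out, whereas nuclear genes of the mitochondrial ribosome were eligible. For carboplatin, markers of the 7 cell types named for mixed members were not eligible either, but macrophage and monocyte markers were. Genes named from a list include some of its 4 members with the largest ratios, and for some lists none of these is named. The choice among them, and of other list members, was made after their values were seen. The members, lists and settings were chosen with earlier results of these data known, and 3 settings were added after these values were seen. Of 32285 genes, 32235 IDs matched GENCODE on GRCm38, used for positions. Scripts, run with Python 3.11.15, numpy 2.4.6, scipy 1.17.1, pandas 2.3.3 and matplotlib 3.10.9, were tested on simulated data.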

Additional observations from a re-analysis of the deposited data

Results flagged for a closer look

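For 6 of the 24 genes named by rule for carboplatin and PBS under saline, the log2 ratios of female-called and male-called members lay on opposite sides of 0, each by at least 1.5-fold. Bag3, Immp2l and Atrnl1 also had opposite signs, with 1 of the sexes under 1.5-fold. The difference between the sexes was not tested, since each sex in each library comes from pooled mice, and the cells number 15 and 11 female-called and 20 and 12 male-called. As female-called minus male-called log2 ratio, H2-Eb1 differed by -3.89 and Cd74 by -2.71. These ratios come from summed UMIs, and the Cd74 median of single female-called members was higher after carboplatin, at 22.1 against 8.46 UMIs per 10000. Hpgd differed by 4.61 and Apoe by 3.19. For Hpgd, 29 of the 61 UMIs of female-called members after carboplatin lay in 1 cell. Plxdc2 differed by 7.01 and Psd3 by 4.57, both on counts of a few cells, with 7 and 0 UMIs of Plxdc2 in female-called members after carboplatin and PBS and 2 and 17 in male-called members. Of H2-Eb1, female-called members had 135 UMIs after carboplatin and 282 after PBS, and male-called members 725 and 44, with up to 292 UMIs in 1 cell.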

How the results depend on the processing

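Carboplatin over PBS in the share of members stayed above 1 in every setting tried, at 1.31 to 2.02. Counts of genes past 2-fold moved most. Against macrophages 528 genes were higher and 540 lower. Lower genes numbered 343 with at least 3 markers and 954 with no minimum of CPM. At 100 CPM or more 271 were higher and 206 lower, at 1.5-fold 986 and 904, and at 3-fold 292 and 296.

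For carboplatin over PBS, 52 genes were higher and 55 lower. With the rule applied to cells thinned to 2000 UMIs, which left 26 and 18 members, 142 were higher and 124 lower. Without members that carried markers of the 7 other cell types, leaving 34 and 25, the counts were 102 and 85. The 15 and 11 female-called cells gave 378 and 300, and the 20 and 12 male-called cells 190 and 339. All these sums hold fewer cells than the 43 and 32 of the main setting. The part of cell number in these counts was not tested. Over all members the counts were 707 and 992 with no minimum of CPM, 10 and 14 at 100 CPM or more, and 23 and 21 with 20 CPM added. At 1.5-fold they were 241 and 314, and at 3-fold 4 and 9. With at least 3 markers 100 were higher, without cells above 20000 UMIs 109 were lower, and with median of ratios scaling 35 were lower. Settings chosen after seeing the data gave 95 higher and 156 lower with at least 7 markers, in 24 and 20 cells. They gave 193 and 169 with that rule and no markers of other cells, in 20 and 14 cells.

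Some log2 ratios of carboplatin over PBS changed sign. With at least 3 markers the MHC class II median was -0.32, Ctsh -0.053, H2-Eb1 -0.32, Cd74 -0.42, Ctsc -0.16, Airn 0.87 and Dlc1 0.63, and the complement median against macrophages 0.20. With the thinned rule Psd3 was 1.58 and Plxdc2 1.31. Without members carrying other markers Psd3 was 0.45, Dlc1 0.65 and Plxdc2 0.20. In female-called cells the MHC class II median was -0.60, Atrnl1 -0.046, H2-Eb1 -0.94, Cd74 -0.64, Psd3 0.87, Hpgd 0.95, Apoe 0.88 and Plxdc2 3.50. In male-called cells Bag3 was -0.39, Immp2l -0.35 and the resident macrophage median -0.075, and over mean CPM of single cells that median was -0.018. With at least 7 markers and no others the MHC class II median was -0.27, H2-Eb1 -0.34, Cd74 -0.0093, Airn 0.66 and Dlc1 1.03. The cause of these changes was not tested. Of the values of named genes over macrophages none changed sign, 429 were counted as the same and 30 as moved. For named genes of carboplatin over PBS 381 were the same, 75 moved and 24 changed sign. Of the other list medians 315 stayed within the median half-width of their genes' counting intervals, and 23 moved further.

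No paired analysis was possible because each group has 1 library. Depth is the limit: 43 and 32 cells summed to 455160 and 331452 UMIs, so a gene at 50 CPM has few UMIs in either sum. The CD64 gate, mixed barcodes and pooled mice cannot be told apart from the treatment with 1 library per group.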

Other observations

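Slc7a11, the cystine transporter, had 56 UMIs in members after carboplatin and 1 after PBS under saline, but 51 of the 56 lay in a single cell. Ly6c2, a gene of classical monocytes whose close relative Ly6c1 may share reads, had 39 UMIs in 10 of 43 members after carboplatin and 3 UMIs in 3 of 32 after PBS, with 87.2% of the 39 in 5 cells. Both genes were singled out after their values were seen.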
